A study of Mus musculus with 8 samples.

Results

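The miR-125 and miR-99/100 microRNAs (miRNAs) are short RNAs known from blood stem cells, and here they were followed in sorted mouse bone marrow. They were taken by name, as every entry of the deposited count table that starts with miR-125a, miR-125b, miR-99a, miR-99b or miR-100. The rule found 4 mature miRNAs of 190, listed there as mmu-miR-125a-5p, mmu-miR-125b-5p, mmu-miR-99a-5p and mmu-miR-99b-5p. It found no entry for miR-100. Together they held 21775 of the 371637 counts, or 5.86%.

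miRNAs guide Argonaute proteins to messenger RNAs that match their seed (bases 2 to 8) and lower the output of those messages. miR-125 is the mammalian relative of lin-4, a regulator of developmental timing in the worm Caenorhabditis elegans, and its members restrain pro-apoptotic genes. Raised miR-125a or miR-125b enlarges the haematopoietic stem cell pool in mice, and forced miR-125b expression can lead to leukaemia there. The miR-99/100 family acts on the mTOR and insulin-like growth factor pathways and is linked to the quiescence of stem cells.

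Small RNA libraries were made from LSK cells, which are marrow cells sorted by flow cytometry as lineage-negative, Sca1-positive and cKit-positive. Blood stem cells and multipotent progenitors make up this fraction. The 4 db/db libraries came from mice of strain B6.BKS(D)-Leprdb/J with both copies of the leptin receptor gene carrying the db mutation, a model of obesity with type 2 diabetes. The 4 db/m libraries came from B6.BKS(D)-Leprdb/+ mice, so the controls carry 1 mutant copy as well. Age and sex are not in the labels, which read 6 months post-diabetes for both genotypes. Every library title reads db/m, and the groups therefore follow the genotype and strain labels. The labels do not say whether libraries of a genotype came from separate animals, so p-values measure only the spread between these samples. A 6-digit number in the titles is shared by some libraries of a genotype and never crosses genotypes, so an effect of it and of genotype cannot be told apart.

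The mature sequences are shown because they set which counts can be told apart and which cannot. They are taken from RefSeq on GRCm38.p6, written 5′ to 3′ with the seed in capitals. miR-351-5p is the other miRNA of the table with the miR-125 seed, and miR-100-5p is shown for its likeness to miR-99a-5p.
miR-125a-5p: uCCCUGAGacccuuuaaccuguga
miR-125b-5p: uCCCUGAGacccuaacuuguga
miR-351-5p: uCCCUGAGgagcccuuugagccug
miR-99a-5p: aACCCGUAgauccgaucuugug
miR-99b-5p: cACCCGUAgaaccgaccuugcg
miR-100-5p: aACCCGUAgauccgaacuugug

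The 4 miRNAs thus fall into a pair with the seed CCCUGAG and a pair with the seed ACCCGUA. Of the 190 miRNAs in the table, 163 had a mature sequence in RefSeq, and miR-351-5p was the only further one with either seed. miR-125a-5p (24 bases) and miR-125b-5p (22 bases) share their first 13 and last 5 bases. miR-99a-5p and miR-99b-5p, both 22 bases long, differ by A1C, U11A, U16C and U21C, with positions counted from the 5′ end of miR-99a-5p. miR-99a-5p and miR-100-5p differ by U16A alone. The sources used here do not state how a read was assigned when it matched more than 1 of these near-identical sequences, so the miR-99a-5p counts are uncertain in this respect.

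The hairpins lie in 3 clusters, each with a let-7 hairpin in it. In GRCm38 coordinates, Mir99b (17830188 to 17830257), Mirlet7e (17830352 to 17830444) and Mir125a (17830812 to 17830879) lie within 692 bp on the plus strand of chromosome 17, inside the protein-coding gene Spaca6. Mir99b and Mirlet7e are intronic there, and Mir125a overlaps an annotated exon. On the plus strand of chromosome 16, Mir99a (77598936 to 77599000), Mirlet7c-1 (77599657 to 77599750) and Mir125b-2 (77646273 to 77646343) lie in introns of the noncoding host transcript Mir99ahg. A similar set on chromosome 9 holds Mir100 (41531425 to 41531504), Mirlet7a-2 (41536716 to 41536811) and Mir125b-1 (41581926 to 41582002), in introns of the noncoding gene 3110039I08Rik. The map of the 3 clusters shows that miR-125b-5p has 2 sources. Mir125b-1 and Mir125b-2 give the same mature sequence, so its counts cannot be assigned to chromosome 9 or 16. let-7c-5p and let-7a-5p likewise have further hairpins elsewhere.

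**Figure D1:**
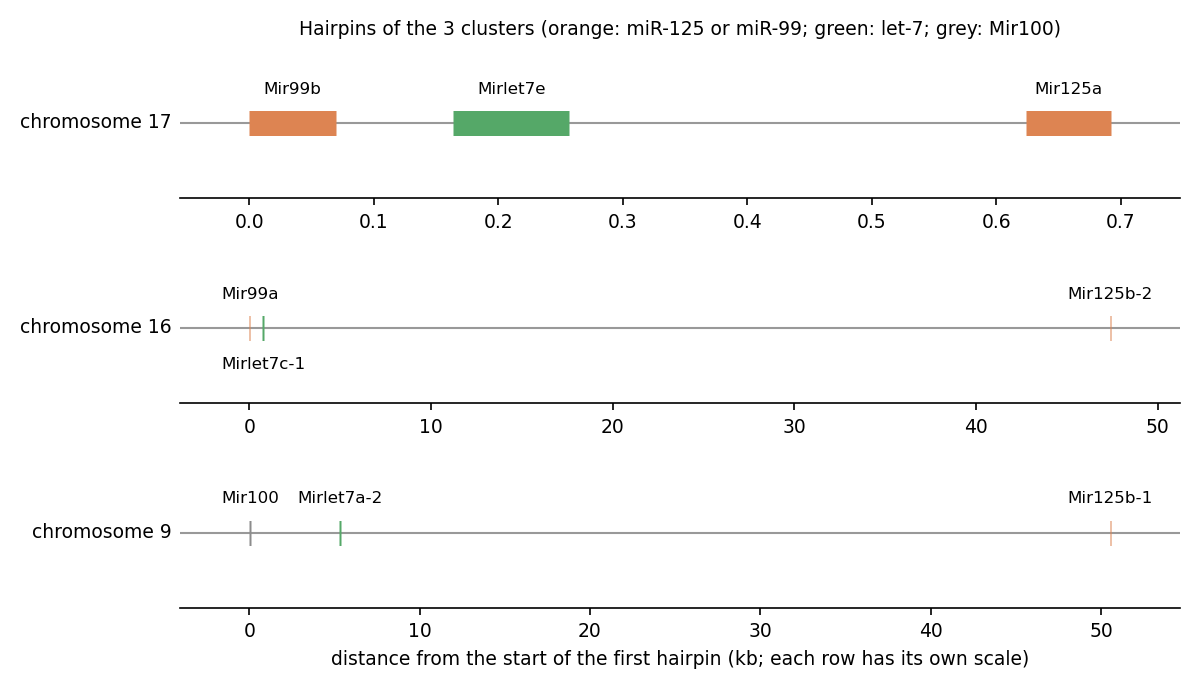
Position of each hairpin in its cluster, as distance in kb from the start of the first hairpin, with 1 row per chromosome and its own scale for each row. The chromosome 17 cluster spans 692 bp, against 47408 bp on chromosome 16 and 50578 bp on chromosome 9, and every cluster holds a let-7 hairpin.

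Total counts ran from 36145 to 54228 in the db/db libraries and from 13273 to 77834 in the db/m libraries. db/m replicate 2 was the shallowest library and db/m replicate 3 the deepest. All 4 miRNAs passed the filter on low counts, which kept 144 of the 190. The LSK label was compared with marker miRNAs: all 8 listed for stem and progenitor cells were measured in every library. Of these, 3 are miR-125a-5p, miR-125b-5p and miR-99a-5p themselves. The other 5 summed to 29934 to 55196 CPM in db/db and to 17700.4 to 24826 CPM in db/m, where CPM is a count divided by the TMM-scaled library size, times 1e6. Of those 5 markers 3 passed the test below, all higher in db/db, where 2.78% of all tested miRNAs were called higher. The 3 were miR-196b-5p and both strands of miR-126a. For other cells, 3 myeloid, 1 lymphoid, 1 erythroid and 1 stromal marker and 1 of other tissues were tested, and none passed. The marker lists were chosen with earlier results of these data known. Mature blood markers were also measured, with the 3 myeloid miRNAs found of 4 listed at 21049 to 28768 CPM in db/db and 20478 to 30226 CPM in db/m. The 1 lymphoid marker found of 2, miR-150-5p, stood at 2980 to 4107 CPM in db/db and 3523 to 8864 CPM in db/m. The 1 erythroid marker found of 5, miR-486a-5p, ran from 1108 to 5754 CPM in db/db and from 2252 to 3388 CPM in db/m. Stromal markers (2 found of 5) summed to 175 to 1236 CPM in db/db and 76.4 to 498 CPM in db/m, and those of other tissues (3 of 9) to 558 to 1918 CPM in db/db and 556 to 1757 CPM in db/m. Their part in the results below was not tested.

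Both miR-125 miRNAs were more abundant than both miR-99 miRNAs. miR-125a-5p was the 8th most abundant miRNA of the table by mean CPM (31720.4), miR-125b-5p the 10th (24652), miR-99b-5p the 46th (2701) and miR-99a-5p the 70th (1066). Level did not follow the seed alone, since miR-351-5p, with the miR-125 seed, was the 54th (1914). Both miR-125 miRNAs had more counts than both miR-99 miRNAs in 8 of 8 libraries, and miR-99b-5p had more than miR-99a-5p in 8 of 8. miR-125a-5p and miR-125b-5p were less clearly ordered, with miR-125a-5p above in 3 of 4 db/db and 4 of 4 db/m libraries. The mature lengths are close, so the levels were not divided by length, and efficiencies of library making for different sequences were not measured.

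The miR-125 pair took 6.42%, 6.48%, 5.48% and 6.37% of the counts in db/db replicates 1 to 4, against 5.94%, 5.19%, 3.63% and 5.37% in db/m replicates 1 to 4. The shares of the genotypes overlapped, since db/db replicate 3 lay below db/m replicate 1. The miR-99 pair took 0.579%, 0.325%, 0.407% and 0.424% in db/db, against 0.387%, 0.362%, 0.193% and 0.333% in db/m. In both pairs db/m replicate 3 held the smallest share.

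**Figure D2:**
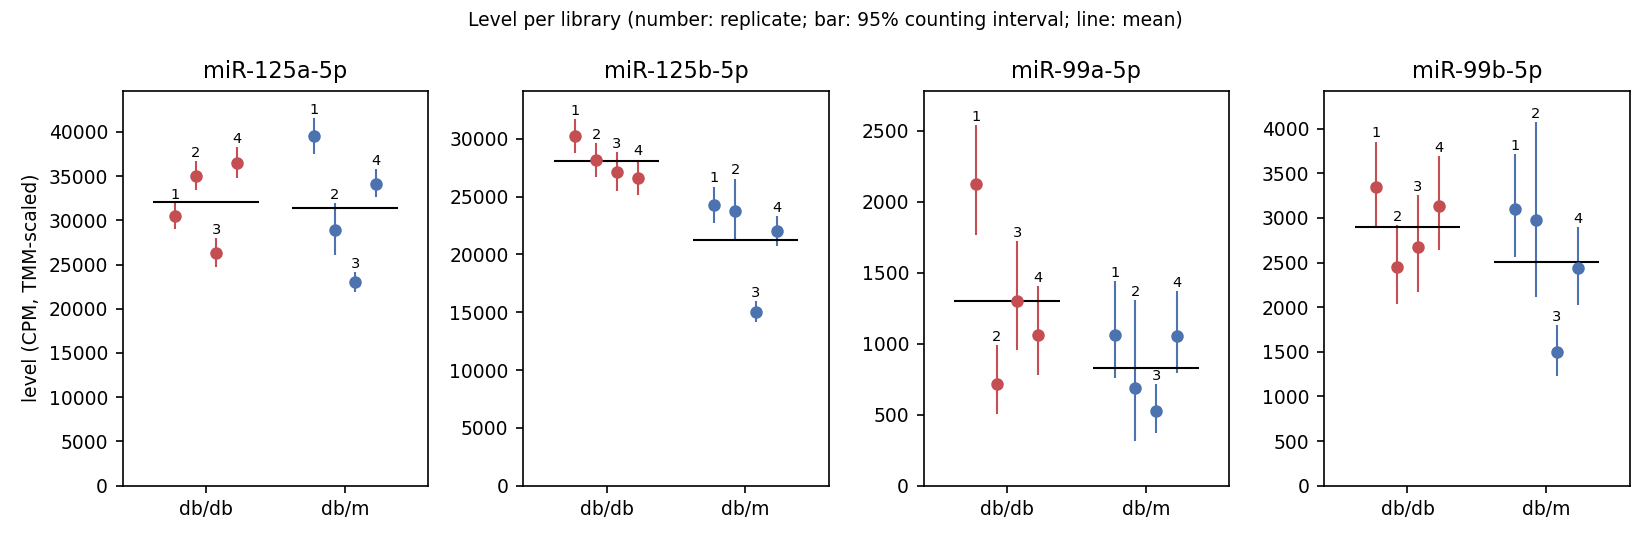
Level of each miRNA in CPM (vertical axes from 0) in the db/db libraries (left) and the db/m libraries (right), with the replicate number, a 95% interval from the counts alone and a line at the mean of 4. The groups are apart for miR-125b-5p alone, and db/m replicate 3 is the lowest of the 8 libraries in every panel.

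Between the genotypes, none of the 4 miRNAs passed an adjusted p of 0.05, although miR-125b-5p was higher in every db/db library than in any db/m library. The quasi-likelihood test of edgeR, with Benjamini-Hochberg adjustment over the 144 tested miRNAs, called 0 of 4, where it called 4.86% of all tested (2.78% higher and 2.08% lower in db/db). With no adjustment, 1 of 4 had p under 0.05, miR-125b-5p, where 22.2% of all tested had. edgeR's likelihood ratio test and DESeq2 called 0 of 4 as well. The 4 log2 fold changes were above 0, with a median of 0.32, where the median over all tested was -0.027 and 45.8% lay above 0.

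miR-125b-5p, the family member whose overexpression is leukaemogenic in mice, had 30215, 28139, 27151 and 26649 CPM in db/db replicates 1 to 4, against 24243, 23764, 15046 and 22011 CPM in db/m replicates 1 to 4. The groups did not overlap, which was so for 17.4% of all tested miRNAs (8.33% higher and 9.03% lower in db/db). The db/db libraries lay close together (coefficient of variation 5.63%), while the db/m libraries spread more (20.0%) through db/m replicate 3. The means were 28038 ± 1578 CPM in db/db and 21266 ± 4256 CPM in db/m (SD, n = 4 each). The fold was 1.32, with a 95% interval of 1.03 to 1.70 (log2 fold change 0.40, SE 0.17). Its edgeR adjusted p was 0.171, from an edgeR p of 0.0321 before adjustment. Without db/m replicate 3 the log2 fold change was 0.19 (edgeR adjusted p = 0.449). Since the libraries are bulk samples, a change in the make-up of the LSK fraction and a change of RNA per cell cannot be told apart.

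miR-125a-5p, which shares its seed with miR-125b-5p and also expands blood stem cells when overexpressed in mice, had 30442, 34999, 26313 and 36474 CPM in db/db, against 39505, 28883, 22993 and 34156 CPM in db/m. The highest and the lowest library were both db/m, and the db/db libraries lay within that range. Means were 32057 ± 4610.1 CPM in db/db and 31384 ± 7078 CPM in db/m (SD, n = 4 each). The fold was 1.02, with a 95% interval of 0.780 to 1.34 that does not reach 2-fold in either direction (log2 fold change 0.031, SE 0.18; edgeR adjusted p = 0.954). Its sign was not stable: the log2 fold change was -0.021 with let-7 left out of the scaling, -0.054 without a filter and -0.17 without db/m replicate 3.

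miR-99a-5p, encoded beside let-7c on chromosome 16, had the largest fold of the 4 and the widest interval. It had 2126, 719, 1297 and 1059.8 CPM in db/db, against 1059.8, 688, 524 and 1054 CPM in db/m. db/db replicate 1 stood above the other 7 libraries, db/db replicate 3 was also above every db/m library, and db/db replicates 2 and 4 lay within the db/m range. The values rest on few counts, 122, 37, 48 and 48 in db/db and 40, 9, 39 and 55 in db/m. Counting error alone gave 1765 to 2538 CPM for db/db replicate 1 and 314 to 1305 CPM for db/m replicate 2 (exact Poisson, 95%). The fold was 1.56, with a 95% interval of 0.906 to 2.68 (log2 fold change 0.64, SE 0.36; edgeR adjusted p = 0.325), on means of 1300.4 ± 599 CPM in db/db and 831 ± 269 CPM in db/m (SD, n = 4 each). Without db/db replicate 1 the log2 fold change was 0.28 (edgeR adjusted p = 0.780). It was 0.39 when db/m replicate 3 was left out (edgeR adjusted p = 0.545).

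miR-99b-5p, encoded upstream of let-7e and miR-125a, had 3346, 2449, 2675 and 3135 CPM in db/db, against 3100.0, 2980.0, 1492 and 2433 CPM in db/m. Only db/m replicate 3 lay outside the span of the other 7 libraries by a wide margin. Means were 2901 ± 412 CPM in db/db and 2501 ± 733 CPM in db/m (SD, n = 4 each). The fold was 1.18, with a 95% interval of 0.809 to 1.72 (log2 fold change 0.24, SE 0.25; edgeR adjusted p = 0.631). Without db/m replicate 3 the log2 fold change was -0.025 (edgeR adjusted p = 0.947).

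db/m replicate 3 was the lowest of the 8 libraries for 4 of 4 miRNAs, while over all 144 tested miRNAs it was the lowest for 13.2%. It was also the lowest for let-7e-5p, which lies between miR-99b and miR-125a. In that library the summed miRNAs listed as myeloid, miR-223-3p and both strands of miR-142a, were at their highest (30226 CPM). Of these, miR-142a-3p alone peaked there, at 16458 CPM, against 16265 CPM in db/db replicate 2. miR-223-3p had 9937 CPM there, against 10364 in db/m replicate 4 and 12739 in db/db replicate 4. miR-142a-5p had 3832 CPM there, against 4050 in db/m replicate 2. The 5 further stem and progenitor markers summed to 21661 CPM there and were lowest in db/m replicate 4, at 17700.4 CPM. The part of either in the fold changes was not tested.

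The authors' deposited table compares diabetic with control libraries over all 190 miRNAs it holds. It gave log2 fold changes of 0.31 for miR-125b-5p (false discovery rate 0.416), -0.054 for miR-125a-5p (0.922), 0.53 for miR-99a-5p (0.454) and 0.15 for miR-99b-5p (0.858). A false discovery rate under 0.05 was given by the authors' deposited table for 5.26% of the 190 miRNAs and for none of the 4. The sign of miR-125a-5p differs between that table and the value above.

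**Figure D3:**
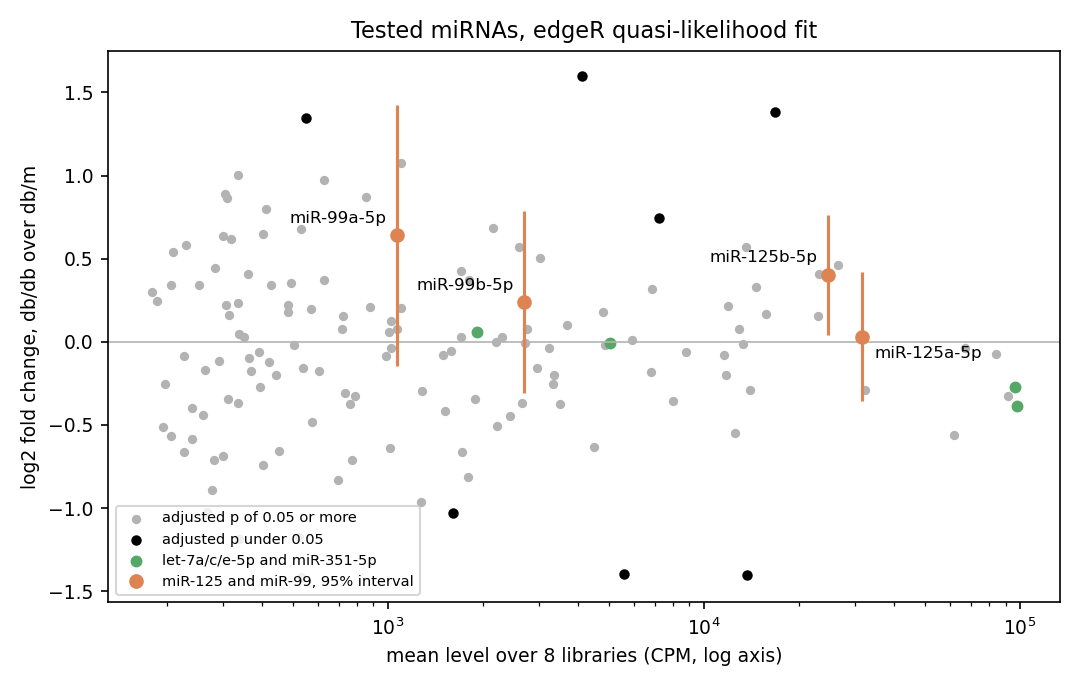
Log2 fold change of db/db over db/m (vertical axis) against mean CPM (log axis) for the 144 tested miRNAs, with 95% intervals for miR-125a-5p, miR-125b-5p, miR-99a-5p and miR-99b-5p. The interval of miR-125b-5p, 0.040 to 0.76, lies above 0 before adjustment, and the other 3 include 0.

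The let-7 partners of the clusters had log2 fold changes below 0, that of let-7e-5p nearly 0, and none passed. let-7c-5p, from the miR-99a cluster and a further locus, stood at 87224 ± 8408 CPM in db/db and 105480.2 ± 4143 CPM in db/m (SD, n = 4 each; log2 fold change -0.27, SE 0.11; edgeR adjusted p = 0.145), with groups that did not overlap. let-7e-5p, from the chromosome 17 cluster, stood at 4999 ± 705 CPM in db/db and 5068 ± 1255 CPM in db/m (SD, n = 4 each). Its log2 fold change was -0.0072 (SE 0.22; edgeR adjusted p = 0.988). let-7a-5p had -0.38 (SE 0.11; edgeR adjusted p = 0.0637), and its groups did not overlap either. Of all tested miRNAs, 9.03% were lower in db/db without overlap. The seed relative miR-351-5p, an X-linked miRNA, had 1342, 2351, 2431 and 1788 CPM in db/db, against 1802, 1299, 1963 and 2337 CPM in db/m. These overlapped throughout (log2 fold change 0.06, SE 0.26; edgeR adjusted p = 0.932).

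Ratios of counts within a library do not depend on how libraries are scaled, and 6 of them were compared between genotypes. Each was tested two-sided and exactly, over all 70 ways to assign the libraries to genotypes (permutation test). The smallest p that 4 libraries against 4 can give is 0.0286. miR-125b-5p over let-7c-5p reached it, with ratios of 0.359, 0.291, 0.298 and 0.345 in db/db replicates 1 to 4, against 0.223, 0.238, 0.144 and 0.203 in db/m replicates 1 to 4. All 4 db/db libraries lay above the 4 db/m libraries. The log2 ratio was -1.63 ± 0.15 in db/db and -2.33 ± 0.32 in db/m (SD, n = 4 each), a difference of 0.70 (exact permutation p = 0.0286, adjusted over the 6 ratios p = 0.171). A single ratio at the smallest p cannot pass 0.05 once adjusted over the 6 ratios. In CPM, miR-125b-5p lay higher and let-7c-5p lower in every db/db library than in any db/m library.

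Within the miR-125 pair, miR-125b-5p over miR-125a-5p was 0.993, 0.804, 1.03 and 0.731 in db/db, against 0.614, 0.823, 0.654 and 0.644 in db/m. db/m replicate 2 lay among the db/db libraries, and the other 3 db/m libraries lay below them all. The log2 ratio was -0.18 ± 0.24 in db/db and -0.56 ± 0.19 in db/m (SD, n = 4 each), a difference of 0.37 (exact permutation p = 0.0857, adjusted p = 0.171). miR-99a-5p over let-7c-5p differed by 0.86 on the log2 scale, from means of -6.16 ± 0.71 in db/db and -7.02 ± 0.45 in db/m (SD, n = 4 each; exact permutation p = 0.0857, adjusted p = 0.171).

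The other 3 ratios overlapped widely. miR-125a-5p over let-7e-5p, a ratio within the chromosome 17 cluster, had log2 means of 2.68 ± 0.15 in db/db and 2.63 ± 0.22 in db/m (SD, n = 4 each), a difference of 0.043 (exact permutation p = 0.800). miR-99a-5p over miR-125b-5p differed by 0.16 (exact permutation p = 0.714) and miR-99a-5p over miR-125a-5p by 0.53 (exact permutation p = 0.314, adjusted p = 0.471). The last of these was 0.24 without db/db replicate 1 and 0.82 without db/db replicate 2. A further 3 ratios with miR-99b-5p, added after the table was read, gave differences of 0.21 over miR-125a-5p, 0.25 over let-7e-5p and 0.32 for miR-99a-5p over miR-99b-5p, with exact permutation p of 0.343, 0.143 and 0.400.

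**Figure D4:**
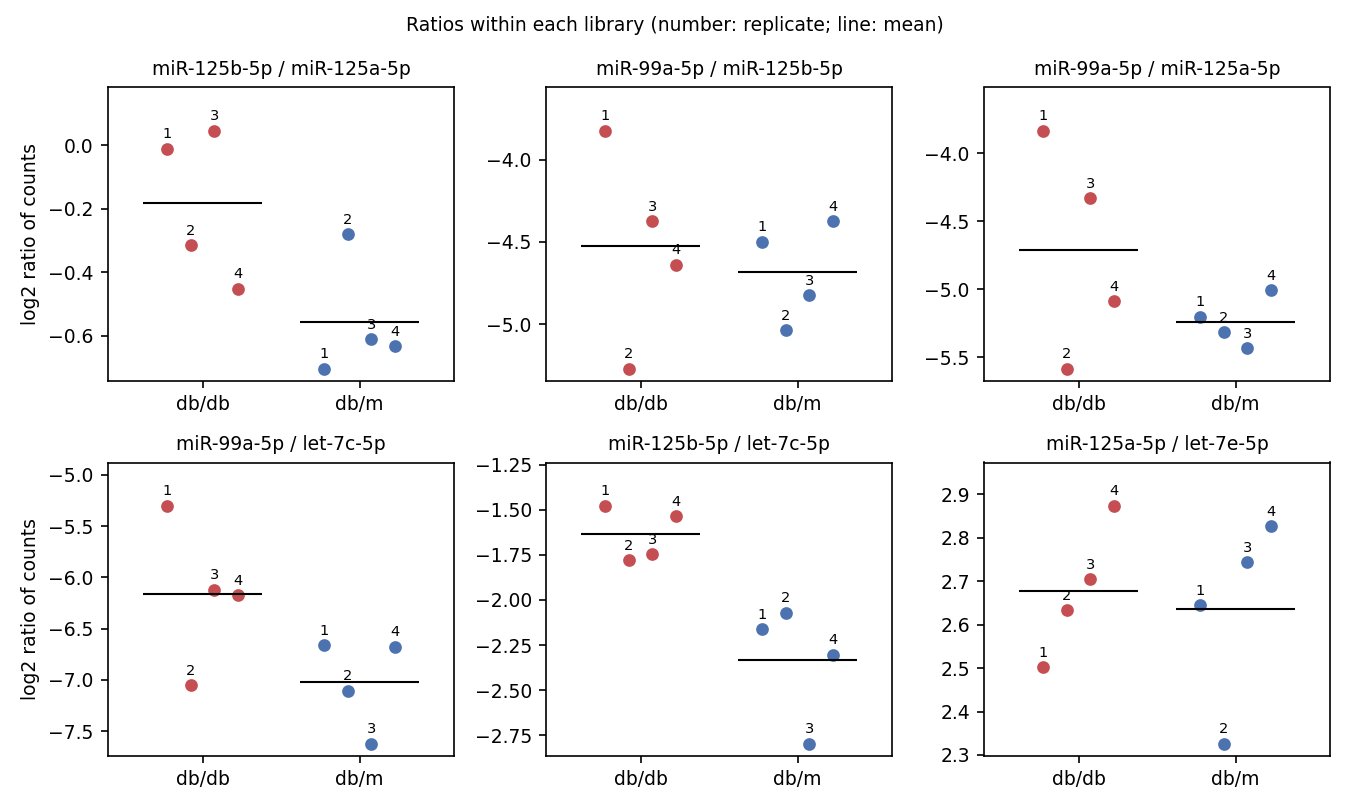
Log2 ratio of counts within each library for 6 pairs, with db/db left, db/m right, the replicate number at each point and a line at the mean of 4. Only miR-125b-5p over let-7c-5p separates the groups, at -1.78 to -1.48 in db/db and -2.80 to -2.07 in db/m.

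The pattern of each miRNA over the 8 libraries was compared with those of all tested miRNAs by Pearson's r on log2 CPM, giving 566 pairs, of which 0 passed an adjusted exact permutation p of 0.05. The 2 most alike are given for each miRNA with the 4 miRNAs themselves left out of the ranking, and the pairs among the 4 follow at the end. The points share library depth and a common total, and the db/db and db/m libraries enter together. Outside the 4, miR-99b-5p was most like miR-10a-5p, which is encoded in the Hoxb cluster, with r = 0.95 and Spearman's rho = 0.95 (exact permutation p = 0.00067 and 0.00114, adjusted p = 0.379 and 0.323). Without the 2 libraries farthest from its median, db/db replicate 1 and db/m replicate 3, r was 0.766. The next was let-7e-5p, with r = 0.762 and rho = 0.524 (exact permutation p = 0.0296 and 0.197), and r = 0.353 without those 2 libraries.

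Outside the 4, miR-125b-5p was also most like miR-10a-5p, with r = 0.893 and rho = 0.619 (exact permutation p = 0.00838 and 0.115). That r was 0.305 without db/db replicate 1 and db/m replicate 3, so its height depended on including them. The next was miR-26a-5p, a miRNA known to target Ezh2, with r = 0.847 and rho = 0.929 (exact permutation p = 0.00146 and 0.00223, adjusted p = 0.414 and 0.421), and r was 0.872 without those 2 libraries. miR-125a-5p was most like its cluster partner let-7e-5p, with r = 0.801 and rho = 0.643 (exact permutation p = 0.0163 and 0.0962), and then miR-30c-5p, with r = 0.754 and rho = 0.762 (exact permutation p = 0.0303 and 0.0368). Without db/db replicate 3 and db/m replicate 3 these r were 0.161 and 0.31, so their height depended on including those libraries. Leaving out the libraries farthest from the median also narrows the range, which by itself can lower r.

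Outside the 4, miR-99a-5p was most like miR-532-5p, with r = 0.743 and rho = 0.714 (exact permutation p = 0.0361 and 0.0576), and r = 0.732 without db/db replicate 1 and db/m replicate 3. miR-10a-5p came next, with r = 0.699 and rho = 0.50 (exact permutation p = 0.0605 and 0.216), and r turned to -0.31 without those libraries. Among the 6 pairs of the 4 miRNAs themselves the highest r was that of miR-125b-5p with miR-99b-5p, 0.859, with rho = 0.619 (exact permutation p = 0.0288 and 0.115, adjusted p = 0.83 and 0.651). It was -0.0077 without db/db replicate 1 and db/m replicate 3.

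A list of other miRNAs linked to early blood cells was set beside them, compiled with earlier results of these data known. Of 18 listed, 14 were tested, and 3 passed by edgeR, all higher in db/db, where 2.78% of all tested were called higher. They were miR-196b-5p and both strands of miR-126a, the same 3 as among the markers above. The 5 further stem and progenitor markers are all in this list, so the calls are not separate. The log2 fold changes of the list had a median of 0.27, with 10 above 0 and 4 below, where the median over all tested was -0.027. The 4 most abundant were let-7c-5p (above), miR-126a-3p, miR-10a-5p and miR-29a-3p. miR-126a-3p, a brake on stem cell cycling, was higher by 1.38 on the log2 scale (SE 0.25; edgeR adjusted p = 0.00532), while miR-10a-5p had 0.33 (SE 0.21; edgeR adjusted p = 0.388). miR-29a-3p, which targets DNA methyltransferases, had 0.57 (SE 0.19; edgeR adjusted p = 0.107), on 16225 ± 1659 CPM in db/db and 10861 ± 2376 CPM in db/m (SD, n = 4 each).

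**Figure D5:**
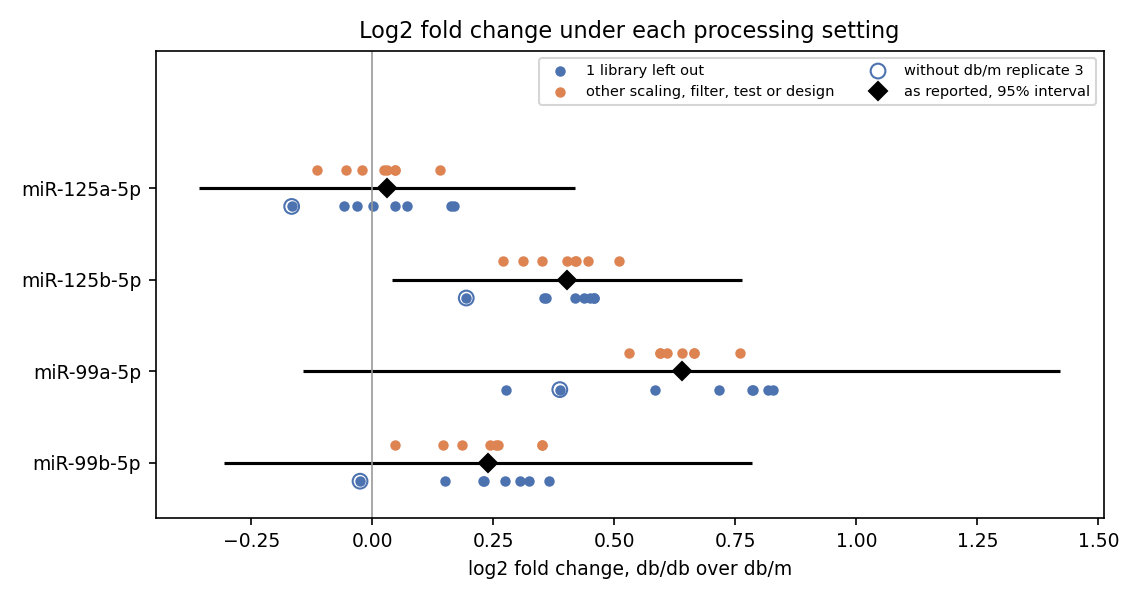
Log2 fold change of db/db over db/m (horizontal axis) for each miRNA as reported with its 95% interval, with 1 library left out, and under other scalings, filters, tests and designs. miR-125b-5p and miR-99a-5p stay above 0 in all of them, while miR-125a-5p runs from -0.17 to 0.17 and miR-99b-5p from -0.025 to 0.37.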

How the data were processed

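The deposited table holds whole-number counts for each mature miRNA, raw per the file headers, beside a log2 fold change, p-value and false discovery rate that the authors computed for diabetic over control. Per the submitters' processing notes, edgeR 3.41.9 and mm10 were used. The sources used here do not state the aligner or the use of molecular identifiers, so Poisson intervals cover counting error only. Columns were joined to samples by title number and suffix, and 0 count columns were left without a sample.

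The test used edgeR 4.0.16 (R 4.3.3), with filterByExpr at min.count 10 and min.total.count 15, then TMM, estimateDisp, robust glmQLFit and glmQLFTest. The design left 6 residual degrees of freedom. Tests and intervals added to them the prior degrees of freedom that edgeR estimates over all tested miRNAs. Adjustment covered 144 miRNAs, and the fit was tested on simulated data. 3 counts equal 55.3 to 83.0 CPM in db/db and 38.5 to 226 CPM in db/m libraries. Log2 CPM used a prior count of 2 and ratios a pseudocount of 0.5 counts. SE is the size of the log2 fold change over the square root of F. DESeq2 1.42.0 was an alternative. Hairpins are from GENCODE M21 and sequences from RefSeq (GRCm38.p6).

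The miRNAs and lists were chosen with earlier results of these data known. Named are those of the rule, their let-7 partners, other miRNAs with their seed, the 2 others most alike in pattern per miRNA and the 4 most abundant of the stem and progenitor list. miR-99b-5p was found by the rule when the table was read, after the alternatives had been listed.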

Additional observations from a re-analysis of the deposited data

Results flagged for a closer look

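In 1 of the 26 groups of 4 values checked, the value farthest out was separated from the rest by more than the 95% critical share of the group's range in Dixon's test. The log2 ratio of miR-99b-5p over let-7e-5p was -1.20 in db/db replicate 2, where the other db/db libraries lay at -0.68 to -0.59. Chance flags about 1 in 20 such groups, and this ratio was among those added after the table was read.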

How the results depend on the processing

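None of the 64 alternative fits of the 4 miRNAs brought one past an adjusted p of 0.05 (lowest for miR-125b-5p, 0.0685 with title numbers summed). Summing by title number left only 2 summed samples per genotype, and those of db/m pooled 3 libraries and 1. miR-125b-5p ranged from 0.19 to 0.51 and miR-99a-5p from 0.28 to 0.83 in log2 fold change. miR-125a-5p turned to -0.021 with let-7 left out of TMM and to -0.054 without a filter. Leaving out 1 library gave -0.17 to 0.17 for miR-125a-5p and -0.025 to 0.37 for miR-99b-5p, with 3 to 18 miRNAs called. That count was 3 without db/db replicate 1, db/m replicate 1 or db/m replicate 4 and 18 without db/m replicate 3. It was 7 as reported, 11 with let-7 left out of TMM, 12 by likelihood ratio, 16 by DESeq2 and 15 with title numbers summed. Scaling by library totals moved the median of all tested by 0.11. The cause was not tested. Title suffixes are shared by the genotypes but number libraries within a title number. Deviations of same-suffix libraries correlated at -0.35 to 0.31 (6 pairs, mean 0.011). Those of different suffixes correlated at -0.31 to 0.19 (10 pairs, mean -0.0019). These few pairs show no pairing by suffix but cannot exclude it. With the suffix as a replicate block miR-125a-5p had -0.11 and 11 miRNAs were called. Of the ratios, miR-99a-5p over miR-125b-5p ran from -0.078 (without db/db replicate 1) to 0.40 with 1 library left out, and miR-125a-5p over let-7e-5p from -0.060 to 0.11, with -0.051 when title numbers were summed. With 1 library left out, miR-99a-5p over miR-125a-5p ran from 0.24 to 0.82, and without db/db replicate 1 miR-99a-5p over let-7c-5p was 0.57, miR-99b-5p over miR-125a-5p 0.11 and miR-99a-5p over miR-99b-5p 0.12. Without db/m replicate 3 miR-99b-5p over miR-125a-5p was 0.12, and without db/db replicate 2 miR-99b-5p over let-7e-5p was 0.39. Without db/m replicate 2 miR-99b-5p over miR-125a-5p was 0.34 and miR-99a-5p over miR-99b-5p 0.16, and without db/db replicate 2 these were 0.33 and 0.49. Depth limits miR-99a-5p most, with 9 counts in db/m replicate 2.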
